A study of Mus musculus with 6 samples.

Results

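The genes described here are 7 transcription factor genes that set the identity of kidney tubule cells or accompany their repair: Hnf4a, Hnf4g, Pax2, Pax8, Lhx1, Sox4 and Sox9. They were chosen by name and role, with earlier results of these data known, so the shares below describe them and are no independent evidence. Each was read from the transcript cluster (a set of probes summarised as about 1 gene) annotated with its symbol, and all 7 were found among 19505 genes, with 1 cluster each. Their values come from Affymetrix whole-transcript arrays of total RNA from mouse renal tubular epithelial cells, which were freed from the kidneys with collagenase type 2. In both groups ischemia lasting 30 min had been followed by 24 h of reperfusion. One group received vehicle (3 arrays, labelled IR). The other (3 arrays, labelled IRPT and taken as the PT2385 group) received PT2385, which blocks pairing of the hypoxia-inducible factor HIF-2α with ARNT, at 10 mg/kg, first 16 h before surgery and then 1, 8 and 20 h after it. The protocol names PT2385 for the group but writes PT2384 for the injected compound. No genotype, strain, age or sex is given, the labels mention no sorting of the cells, and samples without ischemia were not analysed here. Nothing says whether the arrays came from separate mice, so the spread behind each p-value is that of these samples and could be technical.

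HNF4A is a nuclear receptor that proximal tubule cells need to mature, and it switches on transporter and metabolic genes. HNF4G is its close relative in the same receptor family. PAX2 and PAX8 are paired-box factors and LHX1 is a LIM-homeodomain factor. All 3 act when the embryonic nephron forms, and PAX8 remains in adult tubules. SOX9 and SOX4 belong to the SRY-related HMG-box family. SOX9 is low in resting proximal tubules and is switched on in tubule cells that survive an ischemic injury, where it takes part in repair.

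After this injury Hnf4g was 1.82-fold lower in the PT2385 arrays and was the 1 factor of 7 that passed the test over all clusters. Sox9 had the largest difference, 2.96-fold lower, but its PT2385 arrays were far apart and it did not pass. Hnf4a was slightly lower, and Lhx1 and Pax2 slightly higher, with no overlap between groups and no pass. The gap between the groups was only 0.01 for Hnf4a and 0.002 for Pax2. The values of Pax8 and Sox4 overlapped. Over all 22206 clusters 0.829% passed at an adjusted p under 0.05 (0.333% higher and 0.495% lower), and a single gene carries the count of 1 in 7. The groups did not overlap for 5 of the 7 (2 higher, 3 lower), against 20.7% of all clusters (11.6% higher, 9.13% lower). An unadjusted p under 0.05 was found for 4 of the 7 (1 higher, 3 lower), against 14.5% of all clusters (7.94% higher, 6.54% lower). The median difference was -0.17 over the 7 and 0.02 over all clusters.

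Every value is a signal on a log scale, read as log2 from its range since the base is not stated, so each fold rests on that base. Every difference is the PT2385 mean minus the vehicle mean, from limma with Benjamini-Hochberg adjustment over all clusters. Signals are compared between arrays for 1 gene at a time, since probes of different genes respond differently. The 3 measured Y-linked transcripts separated the groups in all 6 arrays: Eif2s3y had means of 9.20 (vehicle) and 3.21 (PT2385), Uty 8.66 and 2.99, and Kdm5d 6.47 and 3.32. A PT2385 effect and a difference in sex therefore cannot be told apart for any gene named here. Proximal tubule markers were bright, with vehicle means of 11.47 for the endocytic receptor gene Lrp2 and 11.78 for the phosphate transporter gene Slc34a1. Markers of other cells also gave signal, with vehicle means of 8.05 for the podocyte gene Nphs1 and 9.24 for the endothelial gene Emcn. In such isolates fewer cells of a type and less RNA per cell cannot be told apart.

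**Figure D1:**
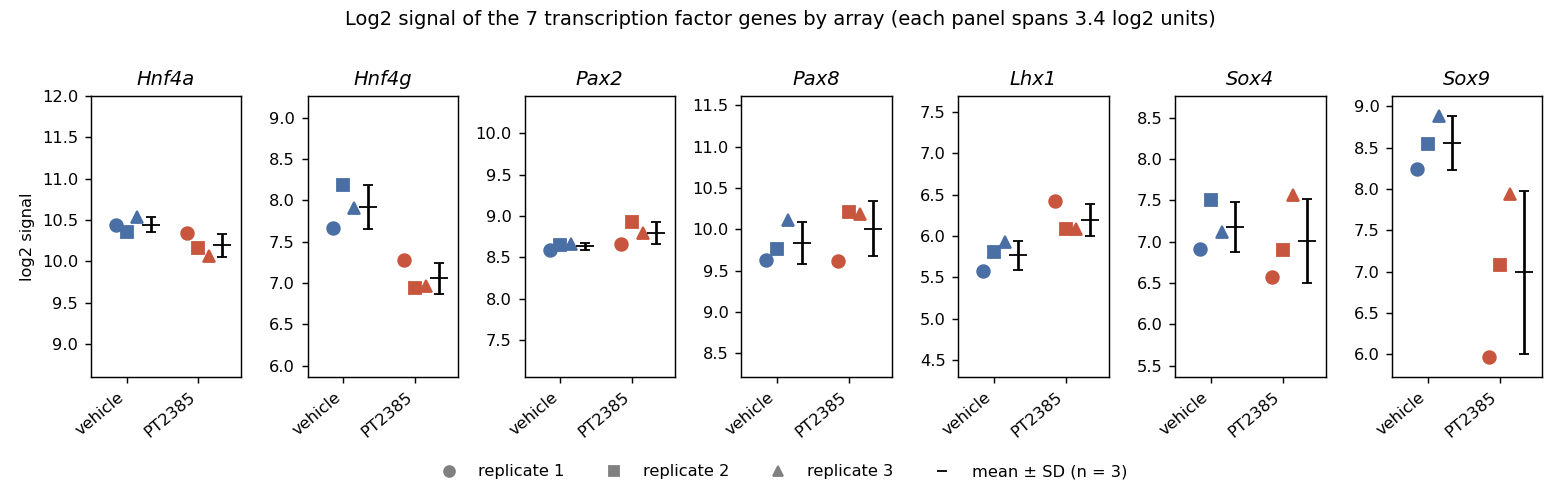
Log2 signal of each gene (vertical axis, its own position in each panel but the same span of log2 units) in the vehicle and PT2385 arrays, with symbols for replicates 1 to 3 and the mean ± SD (n = 3) at the side. The groups do not overlap for Hnf4a, Hnf4g, Pax2, Lhx1 and Sox9, and the PT2385 arrays of Sox9 are spread from 5.96 to 7.93.

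Hnf4g (cluster TC0300000005.mm.2, chromosome 3) encodes the second HNF4 receptor. Its signal was 7.66, 8.19 and 7.90 in vehicle replicates 1, 2 and 3 and 7.27, 6.94 and 6.96 in PT2385 replicates 1, 2 and 3. Every PT2385 array was below every vehicle array, with a gap of 0.39 between the groups. Hnf4g fell, with means of 7.92 ± 0.26 (vehicle) and 7.06 ± 0.19 (PT2385; SD, n = 3 each) and a difference of -0.86 (SE 0.15, 95% interval -1.21 to -0.51, limma adjusted p = 0.0497). Its unadjusted p ranked 177 among all clusters, of which 184 passed, so the gene lay at the edge of the threshold. The call was lost without vehicle replicate 1 (adjusted p = 0.0611), vehicle replicate 2 (0.142), vehicle replicate 3 (0.149), PT2385 replicate 2 (0.238) or PT2385 replicate 3 (0.10), and it was kept without PT2385 replicate 1 (0.0386). Among changes of scale or of the clusters tested it was also lost, at adjusted p from 0.0504 to 0.0526, with quantile normalization, cyclic loess, 1 cluster per gene or omission of the X and Y chromosomes. The difference itself stayed between -0.99 and -0.73. The PT2385 mean lies inside the span of the array's background rows (2.41 to 7.47), so the difference may be understated.

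Hnf4a (TC0200002489.mm.2, chromosome 2), the better-known receptor of the pair, had a mean signal above 99.4% of the negative control rows. The vehicle arrays read 10.44, 10.35 and 10.54 and the PT2385 arrays 10.34, 10.17 and 10.07. The groups were separated by only 0.01, between vehicle replicate 2 and PT2385 replicate 1. Means were 10.44 ± 0.09 and 10.19 ± 0.14 (SD, n = 3 each), a difference of -0.25 (SE 0.11, 95% interval -0.50 to -0.004, limma adjusted p = 0.339). That is 1.19-fold lower, and it did not pass. Both HNF4 genes thus had lower values in the PT2385 arrays, and for Hnf4a the interval leaves out a fall beyond -0.50 on the log2 scale.

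Hnf4a is transcribed from a distal start, called P2, and from a start nearer to the coding exons, P1, which is the form of adult liver and kidney. The array reports 1 cluster for the gene, and which start its probes read was not examined. Both start windows are shown because HNF4A works in a circuit with HNF1 factors. The RefSeq promoter table (GRCm38.p6) held 8 windows for 5 of the 7 genes, each running from 250 bases before to 50 bases after a start. Hnf4g and Sox9 were not among them. The letters searched, on both strands, were ATTAAC (an HNF1 half-site), CAAAGTCCA (HNF4), AACAAT (SOX), TGANTCA (AP-1) and the HIF cores ACGTG and GCGTG. The 2 Hnf4a windows, on the plus strand at chr2:163506607-163506906 (P2) and chr2:163546905-163547204 (P1), have starts 40298 bases apart. A Pax2 window (plus strand, chr19:44755502-44755801) and the Lhx1 window (minus strand, chr11:84525485-84525784) follow for comparison. Capitals mark matches to any of these letters.
Hnf4a P2: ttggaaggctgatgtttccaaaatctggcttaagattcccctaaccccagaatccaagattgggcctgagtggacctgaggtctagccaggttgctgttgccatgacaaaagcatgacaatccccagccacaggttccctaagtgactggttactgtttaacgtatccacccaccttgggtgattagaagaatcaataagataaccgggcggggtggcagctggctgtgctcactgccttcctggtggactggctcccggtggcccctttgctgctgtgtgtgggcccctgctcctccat
Hnf4a P1: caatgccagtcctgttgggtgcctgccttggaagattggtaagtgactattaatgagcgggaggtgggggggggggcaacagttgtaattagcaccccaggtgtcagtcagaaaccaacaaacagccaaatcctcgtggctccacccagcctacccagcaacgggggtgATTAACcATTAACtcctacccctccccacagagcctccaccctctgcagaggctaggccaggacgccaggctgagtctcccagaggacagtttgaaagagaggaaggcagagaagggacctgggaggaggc
Pax2: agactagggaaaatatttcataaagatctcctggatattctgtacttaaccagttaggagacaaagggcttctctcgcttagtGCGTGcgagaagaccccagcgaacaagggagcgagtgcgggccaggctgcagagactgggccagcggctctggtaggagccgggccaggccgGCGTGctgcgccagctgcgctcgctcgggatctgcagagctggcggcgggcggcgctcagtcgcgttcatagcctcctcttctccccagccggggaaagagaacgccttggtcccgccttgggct
Lhx1: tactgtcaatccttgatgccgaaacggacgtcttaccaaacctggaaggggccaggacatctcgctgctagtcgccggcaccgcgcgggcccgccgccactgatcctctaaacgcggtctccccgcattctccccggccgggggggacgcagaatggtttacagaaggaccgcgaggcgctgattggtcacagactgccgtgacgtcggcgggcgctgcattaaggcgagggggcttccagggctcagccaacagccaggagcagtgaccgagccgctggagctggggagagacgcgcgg
The P1 window held 2 copies of ATTAAC, beginning 81 and 74 bases before the start, in a run that resembles the full HNF1 site. The P2 window held no exact match to any of the letters searched. Inexact sites were not searched, so this does not show that P2 lacks an HNF1 site. Of 32851 windows of this length in the table, 7.1% hold ATTAAC. The Pax2 window held 2 copies of GCGTG, which 32.4% of all windows hold. GCGTG was found in 4 of the 8 windows (3 of Pax2 and 1 of Sox4). ACGTG, which 19.6% of all windows hold, was found in 0 of the 8, as were the HNF4, SOX and AP-1 letters (0.475%, 10.7% and 7.81% of all windows). A match is a description of the sequence and not a bound site, and these windows do not include enhancers.

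Pax2 (TC1900000654.mm.2, chromosome 19) encodes the paired-box factor of the early nephron and collecting duct. Its vehicle arrays read 8.59, 8.66 and 8.66 and its PT2385 arrays 8.66, 8.92 and 8.79. The highest vehicle array and the lowest PT2385 array were only 0.002 apart, so the separation of the groups is nominal. The means were 8.63 ± 0.04 and 8.79 ± 0.13 (SD, n = 3 each), a difference of 0.16 (SE 0.10, 95% interval -0.07 to 0.39, limma adjusted p = 0.511).

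Pax8 (TC0200003112.mm.2, chromosome 2) encodes the paired-box factor that marks tubule epithelium along the nephron. Its vehicle arrays read 9.62, 9.76 and 10.11 and its PT2385 arrays 9.62, 10.21 and 10.19. PT2385 replicate 1 read as low as vehicle replicate 1, and the groups overlapped. The difference was 0.17 (SE 0.19, 95% interval -0.25 to 0.60, limma adjusted p = 0.701). For this epithelial factor the interval holds both falls and rises.

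Lhx1 (TC1100003414.mm.2, chromosome 11) encodes a LIM-homeodomain factor needed for the first tubules. Its mean exceeded 84.2% of the negative control rows. The vehicle arrays read 5.57, 5.80 and 5.92 and the PT2385 arrays 6.42, 6.08 and 6.08. All PT2385 arrays were higher, with a gap of 0.16. The means were 5.76 ± 0.18 and 6.19 ± 0.20 (SD, n = 3 each), a difference of 0.43 (SE 0.13, 95% interval 0.12 to 0.73, limma adjusted p = 0.216), or 1.34-fold. It did not pass. All Lhx1 signals lay inside the span of the background rows (2.41 to 7.47), so the fold may be understated.

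Sox9 (TC1100001853.mm.2, chromosome 11) encodes the repair-associated SOX factor. The vehicle arrays read 8.24, 8.54 and 8.89. PT2385 replicates 1, 2 and 3 read 5.96, 7.08 and 7.93. Every PT2385 array was lower than every vehicle array, by at least 0.30, but the PT2385 arrays differed among themselves by 1.97 and the vehicle arrays by 0.65. The means were 8.56 ± 0.33 and 6.99 ± 0.99 (SD, n = 3 each), a difference of -1.56 (SE 0.42, 95% interval -2.52 to -0.61, limma adjusted p = 0.162). Without PT2385 replicate 3 the difference was -2.03 and passed (adjusted p = 0.0359), and without PT2385 replicate 1 it was -1.05 (adjusted p = 0.143). With single arrays left out the adjusted p ran from 0.0359 to 0.418. The PT2385 mean lay inside the span of the background rows (2.41 to 7.47), so this difference too may be understated. Over the 6 arrays the mean of Sox9 exceeded 97.4% of the negative control rows.

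Sox4 (TC1300001722.mm.2, chromosome 13) encodes a SOX factor of progenitor cells that is also known from injured tubules. Its vehicle arrays read 6.91, 7.50 and 7.12 and its PT2385 arrays 6.57, 6.90 and 7.56. PT2385 replicate 1 was the lowest and PT2385 replicate 3 the highest of the 6, so the groups overlapped fully. The difference was -0.17 (SE 0.25, 95% interval -0.73 to 0.39, limma adjusted p = 0.788). It was 0.05 without PT2385 replicate 1, -0.45 without PT2385 replicate 3 and -0.01 without vehicle replicate 2. Sox4 thus has no settled direction in these arrays, and its means (7.18 and 7.01) lay inside the span of the background rows, where differences may be understated. Over the 6 arrays its mean exceeded 94.7% of the negative control rows.

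**Figure D2:**
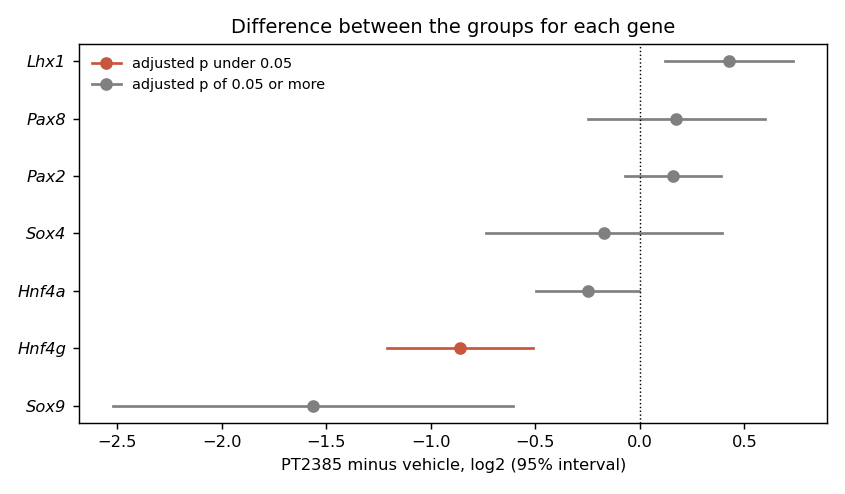
Difference between the PT2385 and vehicle means (horizontal axis, log2) for each gene, with its 95% interval from the limma fit and the color showing whether the adjusted p was under 0.05. Hnf4g at -0.86 is the 1 gene that passed, Sox9 at -1.56 has the widest interval, and the intervals of Pax8, Pax2 and Sox4 span 0.

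The plot of the differences sets the narrow intervals of Pax2 and Hnf4a beside the wide one of Sox9. Among themselves the genes moved unequally across the arrays. Measured as the root mean square distance of their deviations from the mean over the 6 arrays, Pax2 and Pax8 were nearest (0.18 on the log2 scale) and Lhx1 and Sox9 farthest apart (1.21). Hnf4a and Hnf4g were 0.36 apart, and Sox4 and Sox9 0.79. In PT2385 replicate 1, Sox9 (-1.81), Sox4 (-0.53) and Pax8 (-0.30) were at their lowest deviation from the mean and Lhx1 (0.44) at its highest. Hnf4g deviated least from its mean in that array among the PT2385 arrays (-0.21, against -0.55 and -0.53).

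Some lists of markers of other cells also differed between the groups in their mean signal, and others did not. The mean of 10 markers of Henle's loop and the distal convolution was 10.07, 9.52 and 9.23 in PT2385 replicates 1, 2 and 3 and 8.68 to 8.79 in the vehicle arrays. Of these genes 9 had positive differences and 8 did not overlap (all higher, against 11.6% of all clusters), with 0 past the adjusted threshold. The potassium channel gene Kcnj1 had 0.90 and the calcium-binding protein gene Calb1 1.62. The mean of 9 collecting duct markers was 8.69 to 8.98 in the PT2385 arrays, above the 8.24 to 8.37 of the vehicle arrays, with 1.10 for the water channel gene Aqp2 and 0.91 for the vasopressin receptor gene Avpr2 (limma adjusted p = 0.0552 and 0.0821). Lhx1 and Pax2, whose values were higher, were measured in the same isolates. The mean of 11 proximal tubule markers was 11.16, 10.64 and 10.30 in PT2385 replicates 1, 2 and 3 and 10.98 to 11.30 in the vehicle arrays. Of that list 7 had negative and 4 positive differences, with a median of -0.10. In it 2 fell, Slc22a6 and the amino acid transporter gene Slc7a13, and 0 rose. Over all clusters 0.495% were called lower and 0.333% higher. The difference of Slc7a13 (-4.09) may be understated, since its PT2385 mean (5.34) lay inside the span of the background rows. Without Slc7a13, an alternative chosen after seeing the data, the list means were 11.69, 11.20 and 10.81 (PT2385) and 11.16 to 11.47 (vehicle). The groups overlapped in the list mean both with and without Slc7a13. Hnf4a, like this list, was lowest in PT2385 replicate 3. The mean of 6 leukocyte markers was 5.56, 5.73 and 6.01 in the PT2385 arrays and higher in the vehicle arrays (6.26 to 6.68), and the lysozyme gene Lyz2 fell by 1.19 (limma adjusted p = 0.0202), a call lost without vehicle replicate 3 or PT2385 replicate 2 (adjusted p up to 0.131). The T-cell gene Cd3e was near background, with means of 3.91 and 4.03. The podocyte list (4 measured), the endothelial list (6) and the fibroblast and mesangial list (6) overlapped between the groups in their mean signal. Their smallest p values were those of Ptpro (-0.35) and Podxl (0.08), Plvap (0.34) and Cdh5 (-0.14), and Dcn (0.51) and Acta2 (-0.42), and 0 of them passed. The part of these cells in the differences of the 7 genes was not tested.

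**Figure D3:**
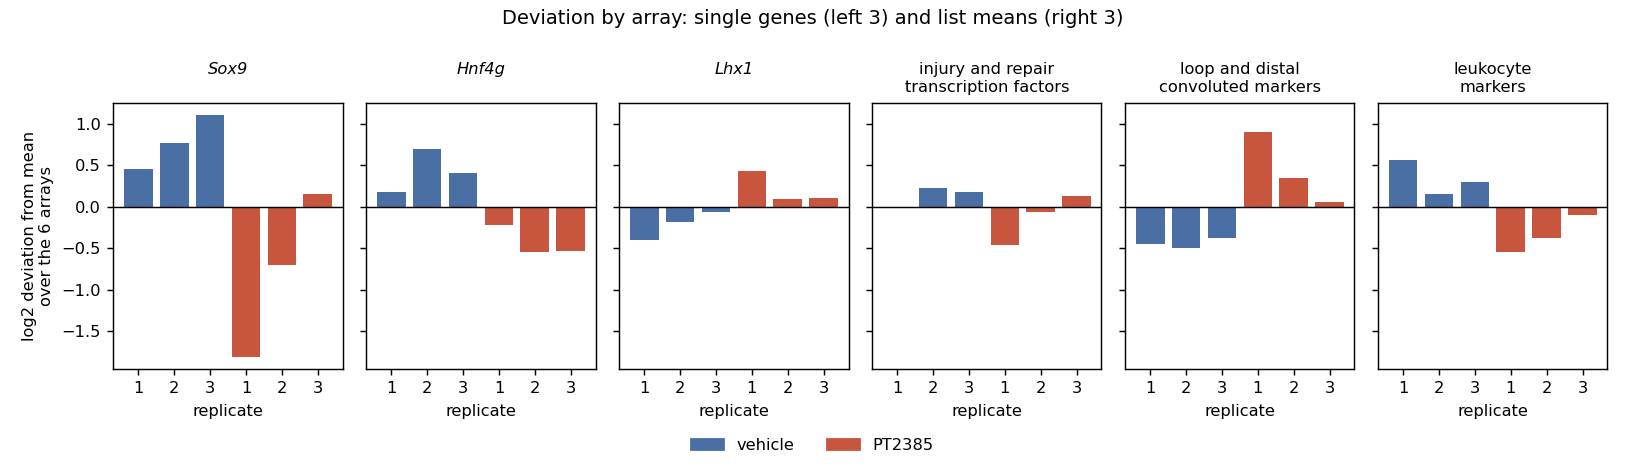
Deviation from the mean over the 6 arrays (vertical axis, log2) in each vehicle and PT2385 replicate for Sox9, Hnf4g and Lhx1 and for the mean of 3 gene lists. In PT2385 replicate 1, Sox9 (-1.81) and the injury and repair factors (-0.46) are at their lowest and the loop and distal markers (0.90) at their highest.

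Sox9 was set beside 32 measured transcription factors of injury and repair, such as the AP-1 and KLF factors. Of these 27 had lower values in the PT2385 group, 5 of 32 did not overlap (all lower), against 9.13% of all clusters with lower values and 20.7% in either direction, and 0 passed, with a median difference of -0.24. The smallest p values were those of Klf6 (-0.70, SE 0.21, limma adjusted p = 0.208), a zinc finger factor induced by injury, and Jun (-0.78, SE 0.27, limma adjusted p = 0.249), a subunit of AP-1. Their list mean in PT2385 replicates 1, 2 and 3 was 7.04, 7.44 and 7.63, the same order as for Sox9. Vehicle arrays had 7.48 to 7.73, in another order than for Sox9. The leukocyte and podocyte marker lists and the list described next had the same PT2385 order too. The list of 20 genes of the SOX9-linked repair state had 15 lower and 5 higher values and a median of -0.13. The ferroxidase gene Cp, alone among them, rose past the threshold (0.97, SE 0.17, limma adjusted p = 0.0484). That call was lost when any 1 of the 6 arrays was left out (adjusted p from 0.0653 to 0.159). Of all clusters 0.333% were called higher and 0.495% lower.

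Hnf4a and Hnf4g were set beside 30 genes of the proximal tubule that are linked to HNF4A. In this list 3 fell and 0 rose, where 0.495% of all clusters were called lower and 0.333% higher. The median was -0.05, with 18 negative and 12 positive differences. Most of the proximal tubule markers given above are also in this list, so it is no separate comparison. The organic anion transporter gene Slc22a6, already counted among the proximal tubule markers above, fell by 0.97 (SE 0.10, limma adjusted p = 0.00572). It kept its call in all alternatives. The urate transporter gene Slc22a12 fell by 0.98 (limma adjusted p = 0.0154) and lost the call without vehicle replicate 2 or PT2385 replicate 2 (adjusted p up to 0.0944). The cytochrome P450 gene Cyp2e1 fell by 2.60 (limma adjusted p = 0.0121) and lost it on omission of vehicle replicate 1 or 3 or of PT2385 replicate 2 (adjusted p up to 0.0883). Among 13 other transcription factors of the proximal tubule 0 passed and the median was -0.16. The coactivator gene Ppargc1a had 0.85 (SE 0.16, limma adjusted p = 0.0534) and the bile acid receptor gene Nr1h4 had -0.51 (SE 0.11, limma adjusted p = 0.0969).

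Pax2, Pax8 and Lhx1 were set beside 18 genes of nephron formation or linked to PAX factors, of which 14 had positive differences, with a median of 0.21. Its 1 member past the threshold was Cdh6, a cadherin gene of the forming proximal tubule, whose vehicle arrays read 7.58, 7.65 and 7.69 and whose PT2385 arrays read 8.74, 8.99 and 8.86. Cdh6 rose by 1.22 (SE 0.10, limma adjusted p = 0.00125) and kept the call in all alternatives. Of 20 other developmental factors 1 passed, the forkhead gene Foxc1 (0.60, SE 0.11, limma adjusted p = 0.0497), whose call was lost when any 1 array was left out (adjusted p from 0.0767 to 0.206). The list's median was 0.12. For both of these lists, each with 1 gene called higher, the share of all clusters called higher was 0.333% and lower 0.495%. Of 24 factors of the distal nephron 0 passed, but 20 had positive differences. In this list 12 did not overlap with higher PT2385 values (11.6% of all clusters did) and 2 with lower ones (9.13% of all clusters did). Their median was 0.23, and the smallest p values were those of Sim2 (0.58, limma adjusted p = 0.0779) and the homeobox gene Hoxd8 (0.48, limma adjusted p = 0.137). The loop and collecting duct markers given above were also higher in these arrays.

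Among 35 other members of the PAX, LIM-homeodomain and SOX families 0 passed, and differences ran from -0.37 to 0.30 with a median of 0.09. Lhx1, at 0.43, and Sox9, at -1.56, lay outside that range, and Pax2, Pax8 and Sox4 inside it. The smallest p values were those of Sox12 (-0.37, limma adjusted p = 0.250) and Sox8 (0.29, limma adjusted p = 0.260), relatives of Sox4 and Sox9 in turn. The list mean ran from 5.39 to 5.43 (vehicle) and from 5.42 to 5.57 (PT2385), a low signal at which differences can be missed.

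**Figure D4:**
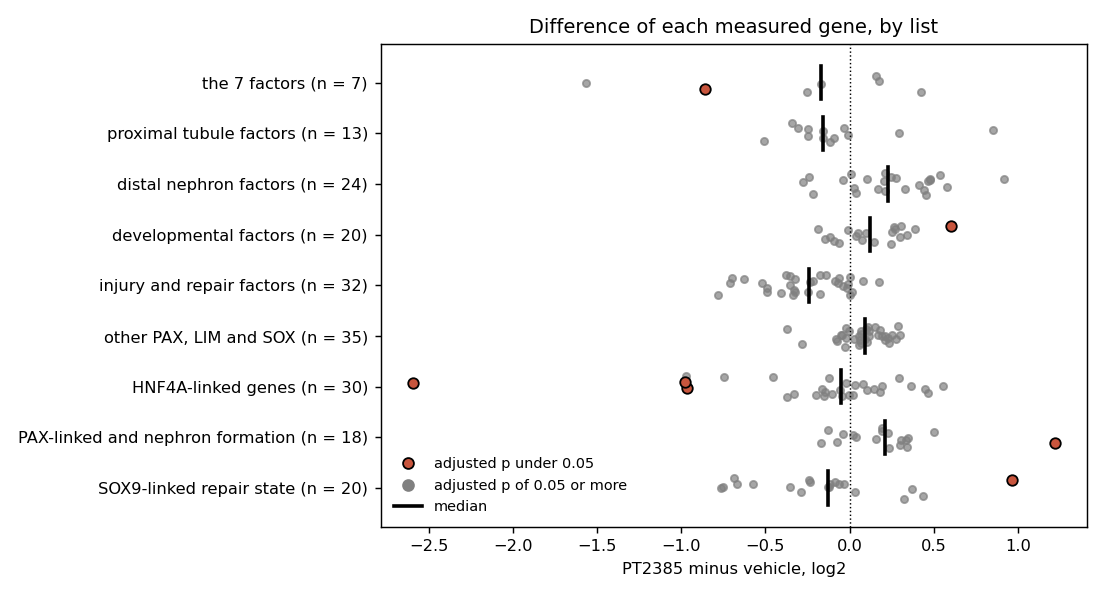
Difference between the groups (horizontal axis, log2) for every measured gene of each list, 1 point per gene, with the list's median as a bar and genes with an adjusted p under 0.05 in color. The medians run from -0.24 for the injury and repair factors to 0.23 for the distal nephron factors, and Hnf4g is the colored point among the 7 factors.

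The plot by list places the 7 factors among these groups. Among 239 genes of the lists, the profile over the 6 arrays nearest to that of Hnf4g was Slc22a6 (root mean square distance 0.20), followed by Slc22a12 (0.25). Nearest to Hnf4a were the phosphate transporter gene Slc17a1 (0.09) and the retinoid receptor gene Rxra (0.09). For Pax2 they were Foxo3 (0.03) and Twist1 (0.07), for Pax8 Jag1 and Lhx3 (0.13 each) and for Lhx1 the fructokinase gene Khk and Eya1 (0.11 each). Lhx3 was near background, since its mean over the 6 arrays (3.85) exceeded only 35.6% of the negative control rows. Twist1 and Eya1 were dim too, with means above 73.7% and 71.2% of these rows. The keratin gene Krt8 and the claudin gene Cldn1 were nearest to Sox4 (0.12 each). Nearest to Sox9 were the neutrophil gene S100a8 (0.34) and Jun (0.46). Sox9 itself deviated from its mean by 0.99 on the same scale and the other 6 genes by 0.11 to 0.47, so distances are larger for genes that vary more. Vehicle arrays of S100a8 read 6.49, 6.21 and 6.07 and its PT2385 arrays 3.94, 4.62 and 5.54, lowest like Sox9 in PT2385 replicate 1. All these S100a8 signals lay inside the span of the background rows (2.41 to 7.47), where differences may be understated. With 6 arrays such likeness describes these arrays only.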

How the data were processed

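The authors deposited 1 summarised signal per transcript cluster and array, read here as log2 from the range of the values. The submitters' processing notes name Transcriptome Analysis Console, with no version, and how signals were summarised and normalized is not given in the sources used here. Of 28846 rows, 6640 control rows were left out and 22206 clusters tested without a filter. Symbols came from the platform annotation, checked against RefSeq through Entrez IDs (0 changed). Chromosomes were read from cluster identifiers. Array medians lay between 6.20 and 6.25.

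Groups were compared with limma 3.58.1 (R 4.3.3; lmFit, eBayes, 2-sided, no covariate), adjusted by Benjamini-Hochberg over all clusters, threshold 0.05. The fit was tested on simulated data. The genes and lists were chosen with earlier results of these data known, so no list was tested as a set. Of 265 listed genes 246 were measured; the others were not analysed here. Each list's genes past the threshold (at most 3, by size), or else the 2 with the smallest p, are named. Lrp2, Slc34a1, Nphs1, Emcn and Cd3e were named after their values were seen. The number of arrays limits the precision.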

Additional observations from a re-analysis of the deposited data

How the results depend on the processing

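Each of the 7 genes had 1 cluster, so no other cluster could be tried, and Lhx1 was left out by the stricter filter on dim clusters. Leaving Hnf4g and Sox9 aside, the other 5 genes passed under 0 of the alternatives, and of all 7 only Sox4 changed sign (0.05 without PT2385 replicate 1). Hnf4g stayed negative in all 16 alternatives, between -0.99 and -0.73 with single arrays left out. It missed the threshold in 10, namely the replicate block given below, 5 omissions of an array and, at -0.83, -0.84, -0.86 and -0.86, quantile normalization (adjusted p = 0.0504), cyclic loess (0.0511), 1 cluster per gene (0.0526) and omission of X and Y (0.0521). Its adjusted p ranged from 0.0151 to 0.238. Sox9 ran from -2.03 to -1.05 with single arrays left out. Same-numbered arrays shared only a number: their deviations correlated at 0.14, 0.03 and -0.06, and not every array correlated best with its own number. With the replicate number as a block the calls over all clusters were 178, Hnf4g at -0.86 did not pass (adjusted p = 0.0761) and Sox9 at -1.56 did (adjusted p = 0.0266, the lowest of its range up to 0.418). Calls over all clusters were 184 (74 higher, 110 lower). They were 456 (191 and 265) with array weights and 42 to 179 (14 to 76 and 28 to 117) with 1 array left out. After median centring 57 were higher and 135 lower. With 3 arrays a group, small differences are missed.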

Other observations

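Within the distal nephron list, factors of different segments had higher PT2385 values without passing the threshold. They were picked after their values were seen. Tfap2b, a factor of the distal tubule, had a difference of 0.46 and Irx1, of the loop, 0.41. Esrrb had 0.92 from a dim vehicle mean of 4.70, and Emx1 had 0.54. The mineralocorticoid receptor gene Nr3c2 had 0.47. Emx2 (-0.27) and Irx3 (-0.22) had lower values with no overlap, as did 9.13% of all clusters. Foxi1, which drives intercalated cells, had 0.17.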
